A study of Arabidopsis thaliana with 12 samples.

Results

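The 108 loci described here are genes annotated in the L*er* genome of *Arabidopsis thaliana* for which the deposited expression table lists no homolog in Col, and which were expressed during regeneration. They were chosen from 27147 L*er* loci as those with an empty homolog entry and at least 1 TPM (a transcript abundance corrected for length, with the same sum in each library) in at least 3 of 12 RNA-seq libraries, leaving out ATLER-5G13300 to ATLER-5G16200, the stretch of chromosome 5 that holds *DEMETER* (*DME*, ATLER-5G14070). The 4 groups were *dme-2* de novo shoots, L*er* WT de novo shoots, *dme-2* calli and L*er* WT calli, with 3 biological replicates each. All tissue started from leaf explants of WT or *dme-2* seedlings in the L*er* background, 14 days after germination. Calli were taken at day 7 of culture on callus-inducing medium (CIM), and shoots at day 14 after transfer of such calli to shoot-inducing medium (SIM). Culture on CIM was in continuous dark and that on SIM under long days, so stage and light cannot be told apart. The mutant is represented by a single *dme* allele. The comparisons ask how these loci changed between calli and shoots in each genotype, and how *dme-2* differed from WT at each stage.

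L*er* and Col are inbred accessions of *Arabidopsis* whose genomes differ by gene gains, losses and rearrangements. Such presence and absence differences are known to be frequent in clusters of disease resistance genes, where tandem copies arise and disappear. *DME* encodes a DNA glycosylase that removes methylated cytosine, and loss of a demethylase can leave genes or nearby transposons more methylated and less transcribed. Callus on CIM is known to resemble root meristem tissue, and SIM then induces shoot meristems and green organs. The loci carry no gene name or function in the files, so they are described by their locus numbers, their levels and the named genes beside them. The L*er* sequence was not used here, and no coordinates or sequences are printed.

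Membership rests on the measured levels in these same libraries, so levels, shares of members called and medians over members are descriptions here and support nothing by themselves. Of the 515 loci with an empty homolog entry, 109 reached the required level, and 1 of these lay in the stretch left out. This was 21.2% of such loci, whereas 73.3% of the 26500 loci with a listed homolog reached it. The loci just inside the limit were ATLER-5G11490, ATLER-4G11860 and ATLER-3G59320, whose third-highest library had 1.02, 1.06 and 1.12 TPM. Just outside lay ATLER-3G13240, ATLER-5G87340 and ATLER-3G67210 with 0.89, 0.88 and 0.83 TPM. Of the 108, 3 met the rule through exactly the 3 libraries of 1 group, namely ATLER-5G32820 through WT shoots and ATLER-5G32380 and ATLER-5G32390 through WT calli. At least 1 TPM was reached in shoot libraries only by 18 members and in callus libraries only by 14. The stage where such a member is high made it a member, so its stage difference is part of how it was chosen. In at least 6 libraries, 84 members had at least 1 TPM. A further 132 loci carry the entry "character(0)" in place of a homolog and were not counted as members.

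The libraries held 12981250 to 20128757 counts. *DME* had 7.49 to 7.89 TPM in *dme-2* shoots and 18.7 to 19.4 TPM in WT shoots, and 3.14 to 3.54 TPM in *dme-2* calli and 10.1 to 13.2 TPM in WT calli. All 7 shoot and leaf markers found in the table, from the photosynthesis gene *LHCB3* to the meristem gene *STM*, were higher in every shoot than in every callus library, although *RBCS1A* and *RBCS1B* share the same 4 loci, which were counted once in sums. Of 8 callus and root meristem markers found, 5 were higher in every callus library. *SCR* ran the other way, with 12.28 to 18.04 TPM in shoots and 4.31 to 8.90 TPM in calli, and *LBD29* and *PLT2* were listed at 0 in all shoots. The count columns labelled *dme-2* callus did not match the TPM columns of the same name. After scaling per locus, the median gap between counts and TPM (in log2 units) was 0.854 to 1.06 for those 3 libraries and 0.0311 to 0.0755 for the remaining 9. Comparisons that involve *dme-2* calli were therefore made from TPM.

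Levels among the 108 loci were mostly low and dominated by a few. The median member had a mean of 3.69 TPM in *dme-2* shoots, 3.42 TPM in WT shoots, 2.04 TPM in *dme-2* calli and 2.16 TPM in WT calli, against 15.8, 15.6, 10.3 and 9.87 TPM for expressed loci with a homolog in the same groups. The 5 highest members supplied 48.8% of the summed TPM of all members in *dme-2* shoots, 54.4% in WT shoots, 55.6% in *dme-2* calli and 53.9% in WT calli. The sum over all members ranged from 948 to 1323 TPM per library. The replicates of members spread somewhat more than those of other expressed loci. The median SD of log2 values was 0.137 for members and 0.107 for loci with a homolog in *dme-2* shoots, 0.158 and 0.0918 in WT shoots, 0.258 and 0.231 in *dme-2* calli, and 0.228 and 0.206 in WT calli.

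**Figure D1:**
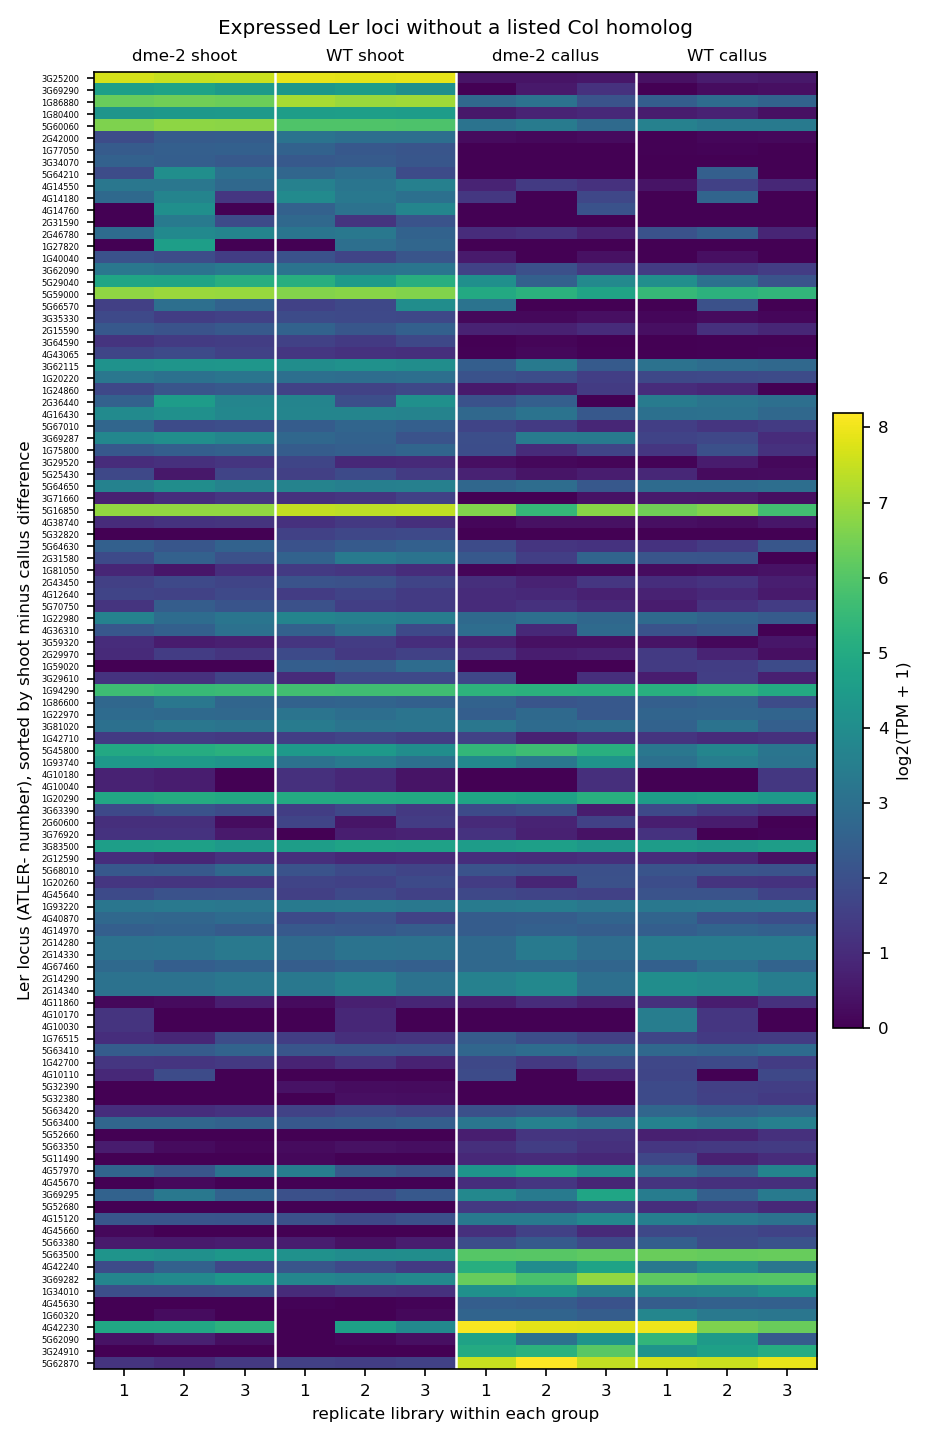
Level of each of the 108 members (rows, by locus number) in each of the 12 libraries (columns, 3 per group), as log2(TPM + 1) from dark (0) to yellow (high). Rows are sorted by the difference between shoots and calli averaged over both genotypes, with ATLER-3G25200 at the top and ATLER-5G62870 at the bottom.

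A group is called on here where all 3 libraries had at least 1 TPM, and off where all 3 had less than 0.1 TPM. On this description, 43 members were on in all 4 groups. Another 22 were on in both shoot groups and in neither callus group, and 6 were on in both callus groups and in neither shoot group. A single member was on in both WT groups and off in both *dme-2* groups, and 11 were on in no group. Among these, ATLER-1G27820 was listed with 0, 23.0 and 0 TPM for *dme-2* shoots, 0, 6.92 and 5.51 TPM for WT shoots and 0 for every callus library. Its counts did not follow its TPM, with 35, 43 and 36 counts in *dme-2* shoots, 37, 25 and 38 in WT shoots and 28, 40 and 34 in WT calli. The heatmap shows these classes as the even rows in its middle, the bright upper left and the bright lower right.

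Part of the table rests on very few counts. In the 9 libraries whose counts can be used, 14 members (13.0%) never exceeded 3 counts, against 0.486% of all expressed loci. For 17 members (15.7%), the counts per TPM were under 0.1 of the median locus, against 0.956% of all expressed loci. The largest such case was ATLER-4G42230, which reached 274, 231 and 226 TPM in *dme-2* calli and 254, 96.6 and 79.7 TPM in WT calli with at most 2 counts in any of the 9 libraries. ATLER-3G25200 was listed at 233 to 238 TPM in WT shoots with at most 27 counts. Some members were also indistinguishable from each other. ATLER-2G14280 and ATLER-2G14330, ATLER-2G14290 and ATLER-2G14340, ATLER-4G10030 and ATLER-4G10170, and ATLER-4G10040 and ATLER-4G10180 each had identical TPM in all 12 libraries, so the 108 loci hold 104 distinct profiles. The levels of these 8 members are uncertain, since near-identical copies can share reads.

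The 12 highest members by mean TPM were ATLER-5G16850, ATLER-4G42230, ATLER-5G62870, ATLER-3G25200, ATLER-5G59000, ATLER-1G86880, ATLER-5G60060, ATLER-5G63500, ATLER-3G69282, ATLER-1G94290, ATLER-1G20290 and ATLER-5G45800. Their patterns over stage and genotype differed. ATLER-1G20290, beside the glutathione transferase gene *GSTU18*, differed little over the groups, with 29.1, 31.7 and 29.5 TPM in *dme-2* shoots, 31.2, 31.0 and 30.3 TPM in WT shoots, 27.2, 25.5 and 34.9 TPM in *dme-2* calli and 22.5, 24.4 and 20.4 TPM in WT calli. ATLER-5G63500 was a callus-biased one, with 17.8, 16.4 and 19.0 TPM in *dme-2* shoots, 16.8, 14.8 and 15.2 TPM in WT shoots, 64.4, 65.8 and 70.9 TPM in *dme-2* calli and 79.6, 75.7 and 76.5 TPM in WT calli. Stage or genotype contrasts of most of the others are given below, but not both for each.

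The members were spread over all 5 chromosomes, with 23, 14, 19, 25 and 27 on chromosomes 1 to 5. They made up 0.597% of the loci of chromosome 4 and 0.326% of those of chromosome 1. Many lay close together. A total of 43 members had another member within 5 rows of the locus order, and these formed 15 clusters. Runs of 3 or more adjacent members were ATLER-2G14280 to ATLER-2G14340 and ATLER-5G63400 to ATLER-5G63420. The nearest locus with a homolog on either side was annotated as a disease resistance gene for 9 members (8.33%), against 14 (3.45%) of the 406 loci with no listed homolog below the level limit and 1.29% of all loci. F-box genes, another family of many tandem copies, neighboured 5 members (4.63%), close to the 4.42% of all loci. Genes of a hypothetical or unknown product neighboured 11 members (10.2%, against 2.47% of all loci). Transposon, receptor-like and defensin or cysteine-rich genes each neighboured 2 members (1.85%, against 0.464%, 1.41% and 1.94% of all loci). Cytochrome P450 genes neighboured 0 members, against 1.60% of all loci. Members of a cluster can share a flanking locus, which then counts for each of them. These shares are descriptions and were not tested.

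The homologs of the flanking L*er* loci mark the matching interval of the Col genome. For 87 members, the flanks lay within 10 protein-coding genes of each other in Col (RefSeq annotation of TAIR10.1). For 24 of these members (27.6%), the interval in Col has at least 1 protein-coding gene that the table lists as homolog of no L*er* locus, and for 22 exactly 1. Adjacent members can share an interval. The share was 28.0% for loci with no listed homolog below the level limit and 1.57% for 25533 neighbouring pairs of loci that both list one. Over the whole genome, 801 of 27444 Col protein-coding genes (2.92%) were not listed. The interval of ATLER-5G62870 holds *PP2-A8*, a phloem protein gene, and that of ATLER-1G86880 holds *TIR*, a toll/interleukin-1 receptor-like gene between *TN9* and *TN11*. *BCAT-1*, an enzyme gene of branched-chain amino acid metabolism, lies in that of ATLER-1G20220, *NADP-ME4*, a malic enzyme gene, in that of ATLER-1G94290, and *CPK23*, a calcium-dependent protein kinase gene, in that of ATLER-4G16430. Whether any of these genes is the counterpart of the L*er* locus was not tested.

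In WT, members differed between shoots and calli about as often as other loci. Of the 108 members, 86 passed the filter on low counts. With the quasi-likelihood test of edgeR and p-values adjusted after Benjamini and Hochberg over 19616 loci, 67 of them passed (77.9%, against 81.8% of all loci), 33 higher in WT shoots (38.4%, against 43.4%) and 34 lower in WT shoots than in WT calli (39.5%, against 38.4%). At the cut-off that the study used, a log2 fold change beyond 1 in either direction and an unadjusted p under 0.05, 46 members passed (53.5%, against 56.8%), 22 higher (25.6%, against 32.2%) and 24 lower (27.9%, against 24.7%). The median log2 fold change was 0.12 for the members and 0.14 for all loci. The balance of directions depended on the scaling. With library size only, the median of all loci was 0.68 and 47 members were higher and 24 lower, and on log2(TPM + 1) with limma the median was 0.58 and the numbers were 45 and 22. The TPM values of WT shoots and WT calli did not overlap for 44 members that were higher (51.2%, against 56.7% of all loci) and 24 that were lower (27.9%, against 27.7%). In bulk tissue, fewer cells of a type and less RNA per cell cannot be told apart. The stages also differ in tissue, with a summed level of the shoot markers of 30972 to 33557 TPM in WT shoots and 38.1 to 64.0 TPM in WT calli. They differ in light as well. The part of tissue makeup or of light in these results was not tested.

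ATLER-1G86880 was among the shoot-biased members with a high level. It had 140, 124 and 129 TPM in WT shoots, against 4.47, 6.46 and 5.12 TPM in WT calli, a log2 fold change of 3.91 ± 0.13 (SE, adjusted p = 1.53e-08). ATLER-1G80400, beside the receptor-like kinase gene *SNC4*, had 22.8, 23.1 and 22.1 TPM in WT shoots, against 0.54, 0.73 and 0.28 TPM in WT calli (log2 fold change 5.15 ± 0.20). Both were low but detected in every callus library. ATLER-2G42000 had 7.76, 6.71 and 6.83 TPM in WT shoots, against 0.04, 0.10 and 0.14 TPM in WT calli (5.49 ± 0.29 on the log2 scale). ATLER-3G69290, between the disease resistance homologs *HR4*, had 19.4, 22.1 and 15.9 TPM, against 0, 0.20 and 0.25 TPM (5.80 ± 0.43, adjusted p = 2.22e-06). ATLER-1G77050, beside the transcription factor gene *AtMYB103*, had 4.99, 3.79 and 3.47 TPM, against 0.03, 0.06 and 0 TPM (6.05 ± 0.35). None of these overlapped between the stages. ATLER-1G80400, ATLER-2G42000 and ATLER-1G77050 reached 1 TPM in shoot libraries only. Their stage differences are therefore part of how they were chosen, and no stage test of them is given.

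Other members were close to absent from WT calli. ATLER-5G32820 had 45, 53 and 63 counts in WT shoots and 0 in each WT callus library. It is a member only through its WT shoot libraries, so this difference is part of how it was chosen. ATLER-3G64590 had 88, 82 and 123 counts in WT shoots, against 0, 1 and 1 in WT calli, a ratio of 153 with a 95% exact binomial interval of 42.0 to 1270. Such intervals, and the floor of 3 counts over the 3 libraries of a group used for bounds, cover counting error only. ATLER-3G25200 lies beside a single locus whose homolog entry names the photorespiratory genes *GOX1*, *GOX2* and *GOX3*. WT shoots had 238, 233 and 234 TPM of ATLER-3G25200, against 0.29, 0.53 and 0.44 TPM in WT calli. Its counts were 27, 13 and 6, against 0, 0 and 0, too few to pass the filter and enough only for a bound of at least 16.0-fold higher in shoots. ATLER-3G34070, the one member listed at 0 in all 6 callus libraries and at 1 TPM or more in all 6 shoot libraries, is also among those with few counts. Its values were 4.81, 4.52 and 3.91 TPM for the *dme-2* shoots and 3.86, 4.15 and 3.61 TPM for the WT shoots. ATLER-3G64590, ATLER-3G25200 and ATLER-3G34070 are likewise members only through shoot libraries, so no stage test of them is given.

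The callus-biased members were as sharply divided. ATLER-5G62870 had 1.93, 1.83 and 2.01 TPM in WT shoots, against 204, 185 and 239 TPM in WT calli. The log2 fold change was −7.28 ± 0.20 (adjusted p = 6.84e-09), and the counts were 81, 81 and 101 in WT shoots and 7107, 10255 and 11700 in WT calli. ATLER-3G24910 had no count in any WT shoot library, against 84, 119 and 133 counts in WT calli, so that it was at least 107-fold lower in shoots. ATLER-1G60320 had 0, 0 and 0.12 TPM in WT shoots, against 12.5, 9.04 and 8.21 TPM in WT calli. With 2 counts in all, against 550, the callus libraries held 263 times as much, with a 95% exact binomial interval of 72.5 to 2178. ATLER-5G62090 lies beside a locus whose homolog entry names several plant defensin genes, among them *PDF1.2*. It had 0, 0.10 and 0.26 TPM in WT shoots, against 40.8, 21.3 and 4.08 TPM in WT calli (−7.90 ± 1.06). The callus replicates of that locus differed widely, and the lowest of them lay above all shoot libraries. ATLER-3G24910, ATLER-1G60320 and ATLER-5G62090 reached 1 TPM in callus libraries only. Their stage differences are therefore part of how they were chosen, and no stage test of them is given. ATLER-1G34010 was lower in shoots as well, with 1.03, 1.34 and 1.23 TPM in WT shoots, against 11.9, 12.7 and 16.6 TPM in WT calli (−4.05 ± 0.21, adjusted p = 1.9e-07).

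**Figure D2:**
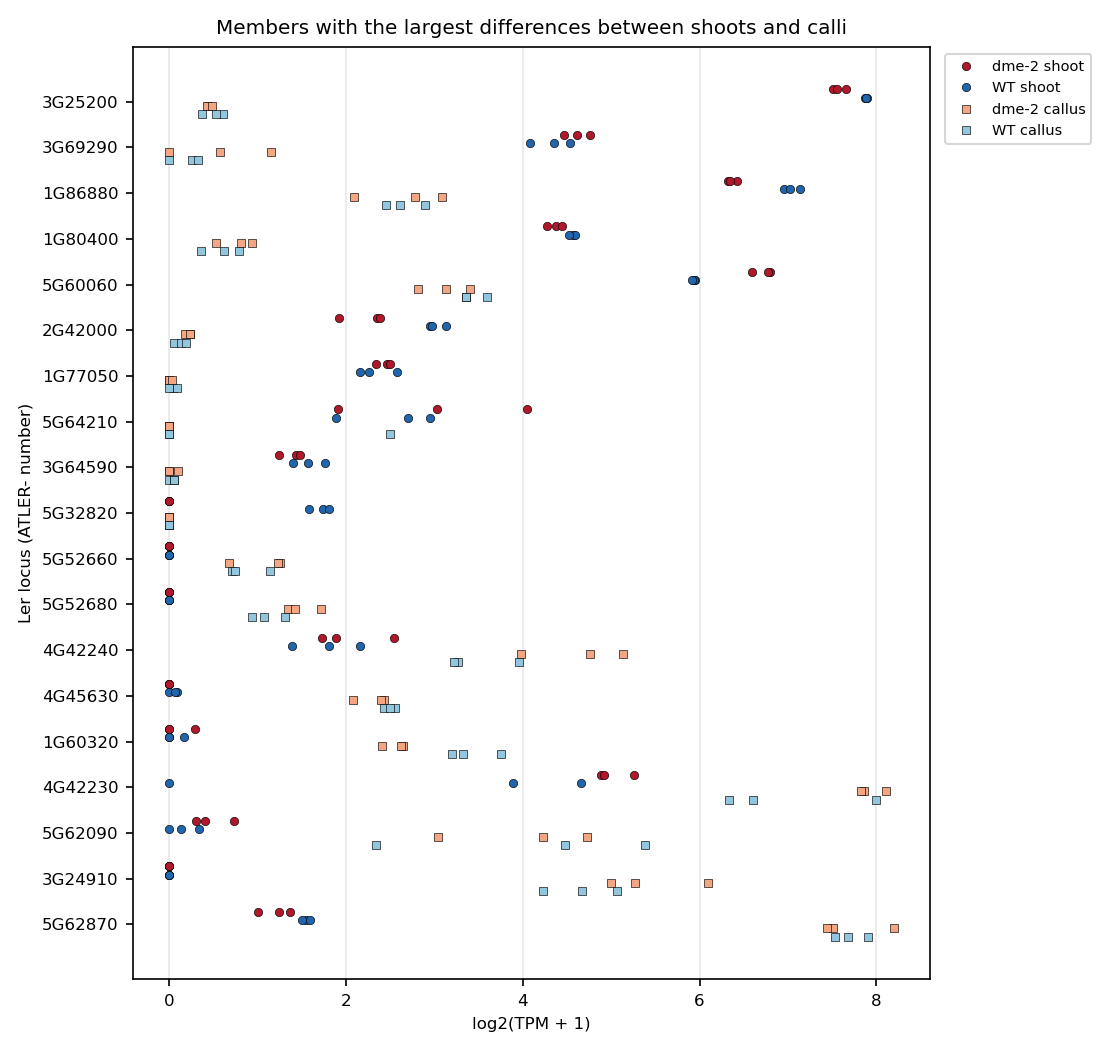
Level, in each library, of the members with the largest stage differences among those that passed a test, as log2(TPM + 1), with circles for shoots (red, *dme-2*, blue, WT) and squares for calli (orange, *dme-2*, light blue, WT). Loci are ordered from the most shoot-biased, ATLER-3G25200, to the most callus-biased, ATLER-5G62870, and at ATLER-5G32820 only WT shoots depart from 0.

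The same contrast in *dme-2* was read from TPM with limma on log2(TPM + 1), a scale that understates the change of low loci. Of 86 members tested, 47 passed (54.7%, against 72.8% of 18729 loci), 31 higher in *dme-2* shoots (36%, against 49%) and 16 lower than in *dme-2* calli (18.6%, against 23.8%). The study's cut-off gave 38 members (44.2%, against 48.8%), 24 higher (27.9%, against 33.9%) and 14 lower (16.3%, against 14.9%). TPM values of the stages did not overlap for 38 members that were higher (44.2%, against 52.7%) and 17 that were lower (19.8%, against 25.8%). The median over all loci was 0.48 on this scale and that of the members 0.40. ATLER-5G62870 had 1.37, 1.0 and 1.58 TPM in *dme-2* shoots, against 182, 292 and 173 TPM in *dme-2* calli (log2 difference −6.51 ± 0.22, adjusted p = 7.25e-07). ATLER-3G24910 was listed at 0 in all *dme-2* shoots, and *dme-2* calli had 30.9, 37.4 and 67.3 TPM. ATLER-5G62090 had 0.32, 0.66 and 0.23 TPM, against 25.6, 7.24 and 17.8 TPM (−3.53 ± 0.42). These 3 loci were lower in shoots than in calli in both genotypes, without overlap. ATLER-3G24910 and ATLER-5G62090 are members only through callus libraries, so no stage test of them is given.

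On the shoot side, ATLER-1G86880 had 79.1, 85.0 and 80.2 TPM in *dme-2* shoots, against 5.85, 7.51 and 3.27 TPM in *dme-2* calli (3.71 ± 0.25, adjusted p = 1.36e-05). ATLER-3G69290 had 23.5, 26.0 and 21.1 TPM, against 0, 0.49 and 1.23 TPM (4.03 ± 0.29, adjusted p = 2.07e-05). ATLER-1G80400 had 18.4, 19.8 and 20.8 TPM, against 0.44, 0.76 and 0.91 TPM (3.61 ± 0.15). None overlapped. The *dme-2* shoots had 201, 182 and 187 TPM of ATLER-3G25200, against 0.36, 0.35 and 0.40 TPM in *dme-2* calli (7.12 ± 0.10), with 16, 27 and 18 counts in the shoots. ATLER-1G80400 and ATLER-3G25200 are members only through shoot libraries, so no stage test of them is given. ATLER-5G64210 had 2.77, 15.6 and 7.14 TPM, against 0 in every callus library (adjusted p = 0.00134). Its TPM differed widely among shoot libraries, while its counts were 14, 18 and 20 in *dme-2* shoots. WT calli were listed at 0, 4.63 and 0 TPM with 6, 6 and 2 counts, so the TPM zeros of this locus do not stand for an absence of reads.

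Across the 108 members, the stage difference on log2(TPM + 1) in *dme-2* and that in WT had a Pearson correlation of 0.93 and a Spearman correlation of 0.86, from libraries that the genotypes do not share. For 19414 expressed loci with a homolog, the correlations were 0.95 and 0.93. Loci are not independent replicates, and these values are descriptions. The sign was the same in both genotypes for 88 of the 108 members, against 17744 of the 19414 loci with a homolog. The 4 members listed at 0 in all *dme-2* libraries have no sign there and count as not the same.

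**Figure D3:**
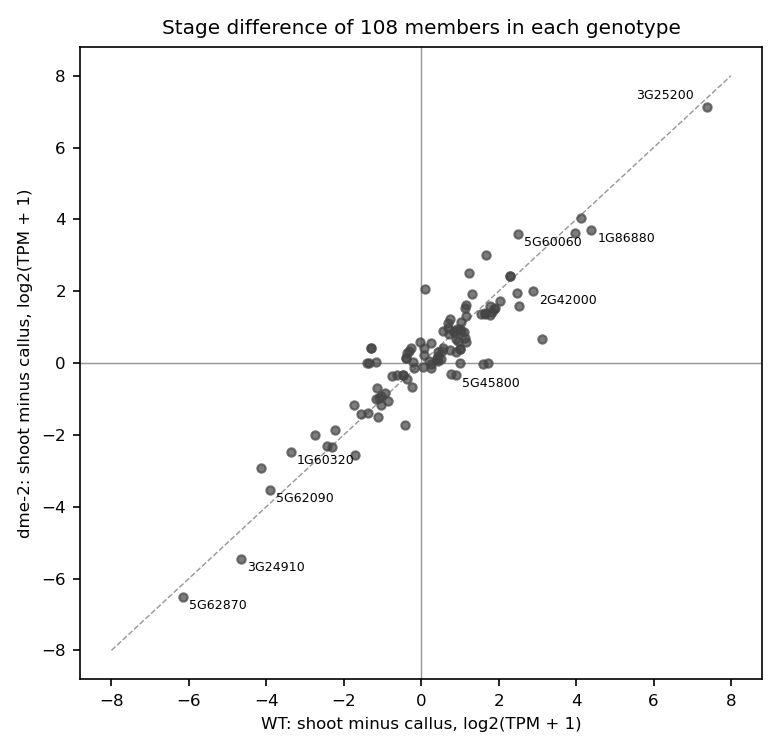
Shoot minus callus difference on log2(TPM + 1) for each of the 108 members in *dme-2* (vertical axis) against that in WT (horizontal axis), with a dashed line of equality. Most points follow the line, from ATLER-5G62870 at the lower left to ATLER-3G25200 at the upper right, and ATLER-5G45800 lies below 0 in *dme-2* and above 0 in WT.

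Neighbouring members did not always share a pattern. In the cluster from ATLER-3G69282 to ATLER-3G69295, which is interspersed with loci named *HR4* after a homolog of a powdery mildew resistance gene, ATLER-3G69290 was confined to shoots at 1 TPM or more apart from 1 *dme-2* callus library. ATLER-3G69282, in contrast, had 12.2, 14.2 and 19.1 TPM in *dme-2* shoots against 77.0, 55.8 and 116 TPM in *dme-2* calli (−2.34 ± 0.28, limma adjusted p = 0.000287), and 12.5, 11.5 and 13.6 TPM in WT shoots against 70.2, 63.2 and 64.0 TPM in WT calli (−2.51 ± 0.15, edgeR adjusted p = 6.21e-07). The 2 loci ran in opposite directions in both genotypes. ATLER-3G69295, at the end of the cluster, had 5.03, 8.73 and 5.0 TPM in *dme-2* shoots, against 13.2, 9.23 and 27.2 TPM in *dme-2* calli, and 3.02, 2.77 and 3.82 TPM in WT shoots, against 9.89, 4.6 and 9.3 TPM in WT calli. In other clusters the members resembled each other. ATLER-5G52660 and ATLER-5G52680, which lie between *TN14* and the catalase gene *CAT3*, had no count in any shoot library, and their WT callus libraries had 17, 33 and 35 counts and 25, 49 and 30 counts. They were at least 27.1-fold and at least 33.2-fold lower in WT shoots than in WT calli. Both of them, like ATLER-4G45630 and ATLER-4G45670 below, are members only through callus libraries, so no stage test of them is given. ATLER-4G45630, between 2 loci annotated with Col homologs AT4G19080 and AT4G19090, had 0.06, 0 and 0.05 TPM in WT shoots, against 4.38, 4.86 and 4.65 TPM in WT calli. ATLER-4G45670 in the same interval had 0 in all WT shoots, against 1.36, 1.19 and 1.16 TPM in WT calli. ATLER-4G45640, adjacent to ATLER-4G45630, did not share this pattern, with 1.94, 2.48 and 2.01 TPM in WT shoots, against 3.32, 3.25 and 2.16 TPM in WT calli.

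Between genotypes in shoots, 34 of 77 members tested passed the edgeR test (44.2%), against 52.8% of 19114 loci. Of these, 22 were higher in *dme-2* shoots than in WT shoots (28.6%, against 26.7% of all loci) and 12 were lower (15.6%, against 26.1%). Most of these differences were small. At the study's cut-off 7 members passed (9.09%, against 7.08%), 5 higher (6.49%, against 4.64%) and 2 lower (2.6%, against 2.44%). TPM values of the genotypes did not overlap for 21 members that were higher (27.3%, against 24.9%) and 15 that were lower (19.5%, against 28%). On log2(TPM + 1) with limma, 21 of 88 members passed, 11 higher and 10 lower. With library size as the only scaling, the edgeR test called 15 higher and 13 lower. The summed level of the shoot markers, all detected in both genotypes, was 21387 to 24227 TPM in *dme-2* shoots and 30972 to 33557 TPM in WT shoots. Most of this sum came from the *RBCS* loci, and *STM* ran the other way, with 17.4 to 21.4 TPM in *dme-2* shoots and 8.87 to 9.55 TPM in WT shoots. The part of tissue makeup in these differences was not tested.

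Of the 6 members with the largest log2 rises in *dme-2* shoots that did not overlap, 5 had less than 10 TPM in every WT shoot library. ATLER-1G93740, beside the protein kinase gene *AGC1.7*, had 20.8, 21.3 and 18.2 TPM in *dme-2* shoots, against 7.59, 9.37 and 7.12 TPM in WT shoots (log2 fold change 1.57 ± 0.07, adjusted p = 6.69e-15). ATLER-3G69287, in the *HR4* cluster, had 12.7, 15.7 and 12.1 TPM, against 5.65, 4.98 and 3.30 TPM (1.54 ± 0.29, adjusted p = 7.17e-05). ATLER-1G34010, beside a locus with the glucosyltransferase homologs *UGT85A1* to *UGT85A3*, had 2.88, 2.88 and 2.99 TPM, against 1.03, 1.34 and 1.23 TPM (1.24 ± 0.12, adjusted p = 3.06e-09). In none of these did a *dme-2* shoot overlap a WT shoot. ATLER-4G40870, between 2 loci annotated with the glucosyltransferase *UGT71B5*, had 5.79, 5.51 and 6.24 TPM, against 2.60, 3.22 and 2.05 TPM (1.21 ± 0.15, adjusted p = 3.36e-07). ATLER-4G43065, beside a locus whose homologs include the disease resistance genes *RPP4*, *RPP5* and *SNC1*, had 2.27, 2.59 and 1.98 TPM, against 1.46, 1.24 and 1.17 TPM (1.12 ± 0.15, adjusted p = 6.09e-07). ATLER-5G60060 had 95.8, 110 and 108 TPM, against 60.6, 60.1 and 59.4 TPM (0.81 ± 0.05, adjusted p = 1.95e-13), the largest rise in TPM among them.

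Falls other than complete losses were modest. ATLER-2G42000 had 2.78, 4.11 and 4.23 TPM in *dme-2* shoots, against 7.76, 6.71 and 6.83 TPM in WT shoots (−0.96 ± 0.12, adjusted p = 4.11e-07). ATLER-5G63420 had 1.1, 1.12 and 1.32 TPM, against 2.09, 2.49 and 2.1 TPM (−0.90 ± 0.18, adjusted p = 0.000154). The adjacent members of its run had higher values in *dme-2*. ATLER-5G63400 had 5.56, 5.54 and 4.89 TPM in *dme-2* shoots, against 3.79, 3.97 and 4.47 TPM in WT shoots, and ATLER-5G63410 had 4.24, 4.10 and 5.07 TPM, against 3.48, 3.39 and 3.22 TPM. The most abundant member, ATLER-5G16850, lies beside the transcription factor gene *WRKY26*, 267 rows of the locus order from *DME* and outside the stretch left out. The part of this position in its genotype difference was not tested. It had 117, 116 and 115 TPM in *dme-2* shoots, against 173, 164 and 168 TPM in WT shoots (−0.50 ± 0.04, adjusted p = 5.74e-10). ATLER-1G86880 was lower by a similar amount (−0.49 ± 0.06, adjusted p = 7.63e-08), with the libraries given above not overlapping. ATLER-5G62870 was also lower (−0.51 ± 0.18, adjusted p = 0.0195) at levels of 1.0 to 2.01 TPM, a call that was lost with DESeq2, with limma on log2(TPM + 1) and without *dme-2* shoot replicate 2 or WT shoot replicate 3 (highest adjusted p over the alternatives 0.115).

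**Figure D4:**
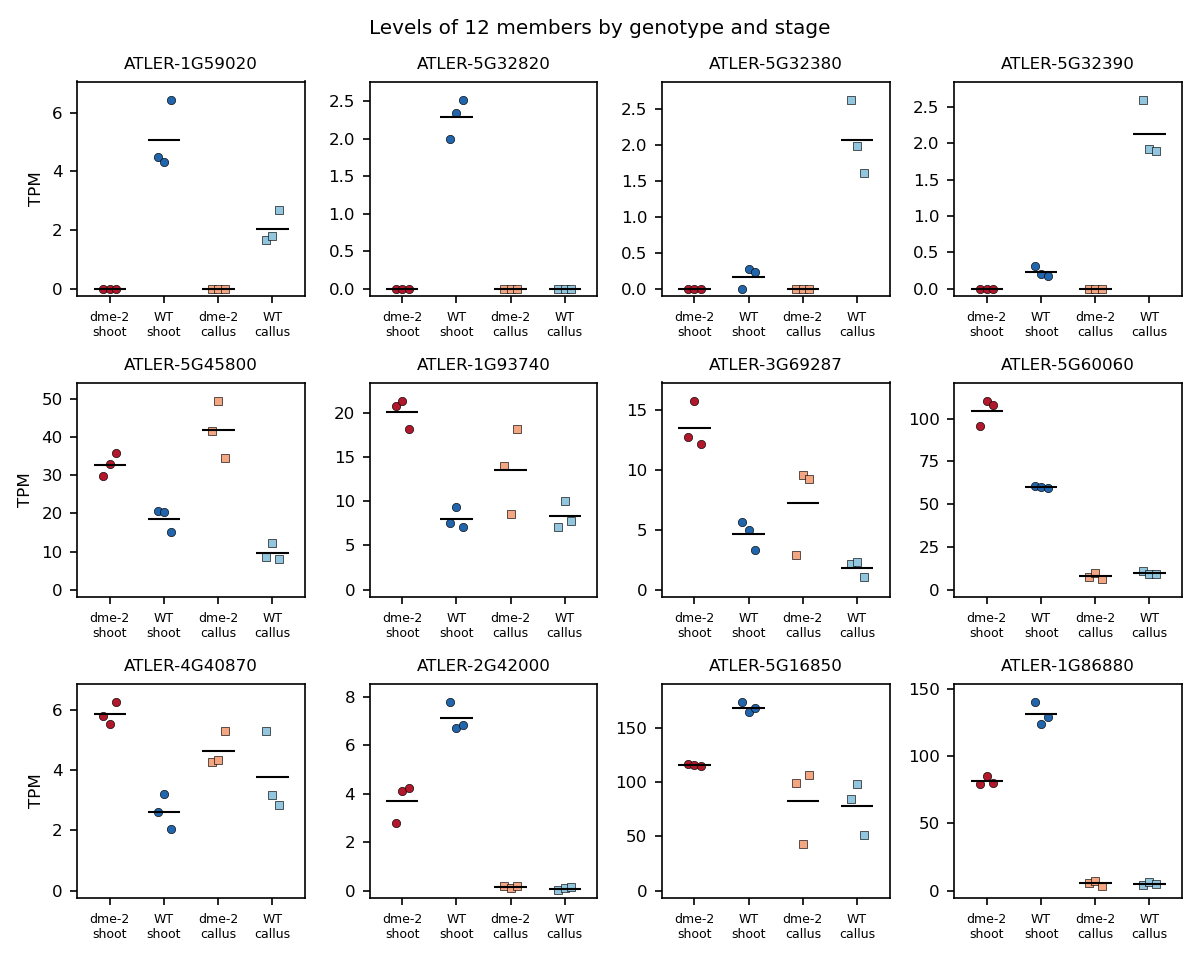
TPM of 12 members in each library (points) with the group mean (bar), for *dme-2* and WT shoots (circles) and *dme-2* and WT calli (squares). The upper row shows 4 members listed at 0 in every *dme-2* library, the middle row members that were higher in *dme-2* shoots, and the lower row ATLER-4G40870, which was also higher, followed by 3 that were lower in *dme-2* shoots.

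In calli, few differences between genotypes passed the test. By limma on log2(TPM + 1), 1 of 76 members had an adjusted p under 0.05 (1.32%, against 0.141% of 17029 loci). It was higher in *dme-2* calli (0.0529% of all loci were), and no member was lower (0.0881% of all loci were), while 12 had an unadjusted p under 0.05. At the study's cut-off 8 members passed (10.5%, against 1.76%), 4 higher (5.26%, against 1.13%) and 4 lower (5.26%, against 0.628%). TPM values did not overlap for 6 members that were higher (7.89%, against 7.53%) and 11 that were lower (14.5%, against 5.75%). The lower members in both counts include ATLER-5G32380, ATLER-5G32390 and ATLER-1G59020, which are members only through WT libraries. The shares of lower members therefore follow in part from how members were chosen. The 8 callus and root meristem markers summed to 92.6 to 121 TPM in *dme-2* calli and 103 to 123 TPM in WT calli. The member that passed was ATLER-5G45800, which lies between AT5G32460 and the thiamine synthesis gene *TH2*. It had 41.6, 49.4 and 34.6 TPM in *dme-2* calli, against 8.61, 12.3 and 8.13 TPM in WT calli (2.01 ± 0.20 on the log2 scale, adjusted p = 0.0346). The groups did not overlap, but the call was lost when any 1 of the 6 libraries was left out, with adjusted p up to 0.205, and also without the filter on low values (0.0508) and with the replicate number as a block (0.191). The locus was higher in *dme-2* shoots also, with 29.8, 32.9 and 35.8 TPM, against 20.5, 20.3 and 15.2 TPM in WT shoots (0.66 ± 0.09, edgeR adjusted p = 1.15e-06). Its flanking loci were nearly level between genotypes. The locus at AT5G32460 had a mean of 2.59 TPM in *dme-2* calli and 2.47 TPM in WT calli, and *TH2* had 12.3 and 11.1 TPM.

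Of the others past the study's cut-off, none passed after adjustment. ATLER-3G69287 had 2.88, 9.62 and 9.26 TPM in *dme-2* calli, against 2.16, 2.35 and 1.05 TPM in WT calli (limma adjusted p = 0.417), the same order as in shoots. ATLER-4G57970 had 18.2, 25.9 and 15.7 TPM, against 6.60, 4.49 and 12.1 TPM (adjusted p = 0.304), and ATLER-4G42240 had 34.1, 14.8 and 26.2 TPM, against 8.64, 14.5 and 8.35 TPM (adjusted p = 0.395). ATLER-2G36440 had 3.21, 4.61 and 0 TPM, against 9.53, 7.81 and 6.88 TPM (adjusted p = 0.546). The WT callus counts of ATLER-4G57970 were 162, 309 and 284 and those of ATLER-2G36440 were 44, 72 and 27. The remaining 3 were listed at 0 in *dme-2*.

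In total, 4 members (3.70%) were listed at 0 in all 6 *dme-2* libraries, against 15 of 19554 expressed loci (0.0767%). No member was listed at 0 in all 6 WT libraries, against 3 expressed loci (0.0153%). The choice of members favours this asymmetry, since ATLER-5G32820, ATLER-5G32380 and ATLER-5G32390 are members only through 1 WT group and ATLER-1G59020 only through WT libraries. ATLER-1G59020 was the only one on in both WT groups, with 4.49, 4.33 and 6.42 TPM in WT shoots and 1.67, 1.80 and 2.67 TPM in WT calli. Of all 19554 expressed loci, 3 were listed at 0 in every *dme-2* library and at 1 TPM or more in every WT library. In shoots ATLER-1G59020 had 0 counts in each *dme-2* library and 50, 50 and 62 in WT. Its WT libraries alone made it a member, so no test of its genotype difference at either stage is given. Its direct neighbours were listed at 0 in *dme-2* too. ATLER-1G59010 (homolog AT1G44940), directly before it, had 0.97, 0 and 1.78 TPM in WT shoots and 2.67, 0 and 0 TPM in WT calli. ATLER-1G59030, directly after it, had 3.2, 2.6 and 4.04 TPM in WT shoots and 0, 0 and 0.48 TPM in WT calli. Neither was above 0 in any *dme-2* library, but both were also at 0 in several WT libraries. The next locus before these, ATLER-1G59000 (homolog AT1G44920), was expressed in both genotypes, with means of 32.6 TPM in *dme-2* shoots and 51.8 TPM in WT shoots.

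ATLER-5G32820 was detected in WT shoots alone, at 2.00, 2.34 and 2.51 TPM. It had 0 counts in each *dme-2* shoot library, against 161 in all in WT shoots, the group that made it a member, so no test is given. Here the neighbours were expressed in both genotypes. ATLER-5G32810 (homolog AT5G22860) had a mean of 8.76 TPM in *dme-2* shoots and 3.38 TPM in WT shoots, and ATLER-5G32830 (homolog AT5G22870) had 3.49 and 3.46 TPM. ATLER-5G32380 and ATLER-5G32390 are adjacent and were detected mainly in WT calli, at 2.62, 1.98 and 1.61 TPM and at 2.59, 1.92 and 1.89 TPM. WT shoots had at most 0.31 TPM of either. Since the WT callus libraries alone made both of them members, no test between calli is given. The invertase gene *INV-E* before them was expressed in all groups, with a mean of 19.0 TPM in *dme-2* calli and 10.9 TPM in WT calli. Whether these 4 loci are present in the genome of the *dme-2* line was not tested.

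The genotype difference itself differed between stages for 6 of 85 members (7.06%, against 10.9% of 18813 loci) in limma's interaction test on log2(TPM + 1), 3 with a higher value (3.53%, against 6.75%) and 3 with a lower one (3.53%, against 4.2%). The study's cut-off gave 3 members (3.53%, against 7.16%), 2 higher (2.35%, against 4.3%) and 1 lower (1.18%, against 2.86%). ATLER-5G60060 was higher in *dme-2* than in WT shoots but not in calli, where *dme-2* libraries had 7.74, 9.58 and 6.05 TPM and WT libraries 11.1, 9.24 and 9.26 TPM (interaction 1.11 ± 0.19, adjusted p = 0.00439). ATLER-5G45800 had the larger genotype difference in calli (−1.22 ± 0.25, adjusted p = 0.0114). ATLER-2G42000 was lower in *dme-2* shoots, and calli of both genotypes were at 0.18 TPM or less (−0.89 ± 0.20, adjusted p = 0.0192). ATLER-1G59020 was listed at 0 in *dme-2* at both stages, so its value (−0.99 ± 0.23) reflects only that WT shoots were higher than WT calli. It is a member only through its WT libraries, so this value is a description and no p-value is given. ATLER-5G59000 lies beside a locus with the resistance gene homologs AT5G41740 and AT5G41750. It had 113, 125 and 122 TPM in *dme-2* shoots, against 101, 105 and 99.7 TPM in WT shoots, and 30.4, 36.3 and 26.9 TPM in *dme-2* calli, against 43.8, 37.7 and 41.0 TPM in WT calli (0.62 ± 0.15, adjusted p = 0.0250). Its genotypes did not overlap at either stage, with *dme-2* higher in shoots and lower in calli. The difference in calli alone did not pass (limma adjusted p = 0.570).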

How the data were processed

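The authors aligned stranded mRNA libraries against the L*er* assembly (STAR 2.7.10a) and quantified transcripts with RSEM 1.3.1. They deposited TPM per locus, scaled for transcript length and library total, and a table of raw counts per locus whose counting step is not given in the sources used here. Counts of WT calli, WT shoots and *dme-2* shoots were compared with edgeR 4.0.16 (quasi-likelihood test, TMM, filterByExpr; R 4.3.3), each comparison on its own 6 libraries. Where *dme-2* calli entered, limma 3.58.1 was used (eBayes, trended) on log2(TPM + 1), keeping loci whose mean reached 1 TPM. P-values were adjusted over all loci tested (Benjamini-Hochberg, 0.05), and they measure the spread between 3 biological replicates. Standard errors of edgeR fold changes were derived from its F statistic. All tests were tested on simulated data. Alternatives were RLE, library size only, no filter, DESeq2 1.42.0, limma on TPM, a pseudocount of 0.1, the replicate number as a block, all 12 libraries in 1 fit, stricter membership and leaving out each library. Library size only and membership without loci of few counts were added after seeing the data. The members, the lists and the tests were chosen with earlier results of these data known. Named members were the 12 highest by mean TPM, up to 6 rises and 6 falls per comparison with non-overlapping TPM (by the study's cut-off where fewer than 3 passed), those listed at 0 in 1 genotype, runs of adjacent members, the loci beside the level limit and the strongest interactions. ATLER-1G27820, ATLER-3G34070, ATLER-3G69295, ATLER-4G45640, ATLER-4G45670, the examples of Col intervals and the pairs with few counts were added after their values were seen, as neighbours of these or as limits of the table. Col gene names follow the deposited homolog entries and RefSeq's TAIR10.1 annotation.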

Additional observations from a re-analysis of the deposited data

Results flagged for a closer look

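The difference between *dme-2* and WT was not the same in shoots and in calli for 6 members by limma's interaction test on log2(TPM + 1), where a positive value means a larger *dme-2* minus WT difference in shoots. The values were 1.11 for ATLER-5G60060, −1.22 for ATLER-5G45800, −0.89 for ATLER-2G42000, −0.99 for ATLER-1G59020, 0.62 for ATLER-5G59000 and 0.91 for ATLER-1G60320. ATLER-1G60320 had 0, 0.22 and 0 TPM in *dme-2* shoots, against 0, 0 and 0.12 TPM in WT shoots, and 5.24, 5.17 and 4.32 TPM in *dme-2* calli, against 12.5, 9.04 and 8.21 TPM in WT calli. Its interaction (adjusted p = 0.0307) was lost with a pseudocount of 0.1, with the replicate block and without any of 8 libraries, namely *dme-2* callus replicates 1 and 3, the 3 WT shoot and the 3 *dme-2* shoot replicates (highest adjusted p over the alternatives 0.344). The interaction of ATLER-5G59000 was lost with the replicate block and without any of 7 libraries, namely WT callus replicate 1, *dme-2* callus replicate 1, the 3 WT shoot replicates and *dme-2* shoot replicates 2 and 3 (highest 0.0678). That of ATLER-2G42000 was lost with a pseudocount of 0.1 and without WT shoot replicate 1 (highest 0.0535). That of ATLER-1G59020, a description as said above, was lost with a pseudocount of 0.1. Groups of 3 libraries were too small for a test of single outlying samples.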

How the results depend on the processing

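The number of members called between WT shoots and WT calli stayed within 61 to 69 when each library was left out, and that between *dme-2* shoots and *dme-2* calli within 42 to 50. Between *dme-2* and WT shoots it was 34 in the edgeR fit, 21 with limma on log2(TPM + 1), 25 with DESeq2 and 23 to 31 with a library left out. Between *dme-2* and WT calli limma called 1 member, which was higher in *dme-2*. Without the filter on low values it called 3, all lower, and lost the 1 that was higher. It called 3 with all 12 libraries in 1 fit (1 higher, 2 lower) and 0 with the replicate block (12 at an unadjusted p under 0.05). It called 0 in every fit that left out a library (range 0 to 0, with 7 to 20 at an unadjusted p under 0.05). For the interaction limma called 6 members, 10 without the filter, 4 with the replicate block and 3 to 11 with a library left out, the fewest without WT shoot replicate 1 and the most without *dme-2* callus replicate 2. None of the fold changes of named members that were refitted changed its sign under the alternatives run, but others were not refitted. ATLER-1G94290 had an edgeR log2 fold change of −0.17 between WT shoots and WT calli (adjusted p = 0.0876) and a difference of 0.53 on log2(TPM + 1). ATLER-3G25200 had an edgeR value of 0.32 between *dme-2* and WT shoots (adjusted p = 0.549), while its TPM was lower in *dme-2* shoots without overlap. With the replicate block, 62 of 67 fold changes of named members kept their side of the threshold and 5 lost it. Without pairing by the labels beyond a shared number, the same-numbered libraries had correlations of their deviations from the group means of −0.40 to 0.01 over the 4 comparisons, and at most 1 of 3 libraries correlated best with its own number. Leaving out the 17 members with under 0.1 of the usual counts per TPM, an alternative chosen after seeing the data, changed the called number only between *dme-2* shoots and *dme-2* calli, where it was 42 against 47.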
